A study of Rattus norvegicus with 42 samples.

Results

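The genes described here are the 9 genes of retinal melatonin, dopamine and melanopsin signalling that were named for this account (Aanat, Asmt, Mtnr1a, Th, Dbh, Drd1, Drd2, Drd4 and Opn4), taken by symbol from the 32623 genes of a count table of rat retina. Of these 9 genes, 8 passed the filter on low counts, as did 18094 genes in all, and Mtnr1a did not. The table holds 31 libraries of adult rat retina in 6 groups: untreated control (n = 5), light damage, which is exposure to light of 15000 lux for 24 h (n = 7), an injection of vehicle into the vitreous (n = 5) or of 1 mM nanoceria, which are cerium oxide nanoparticles (n = 4), and each injection combined with the light (vehicle plus light, n = 5; nanoceria plus light, n = 5). All rats had been kept in a cycle of 12 h light and 12 h dark. The sources used here do not give strain, sex, age in weeks, the hour at which the retinas were taken or the interval between injection and light. A difference in the hour of collection between groups cannot be told apart from the treatment.

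Melatonin is made in photoreceptors at night, by Aanat, which acetylates serotonin, and Asmt, which methylates the product, and Mtnr1a is a receptor for it. Dopamine is made by day in a sparse class of amacrine cells, where Th catalyses the rate-limiting step. It acts through Drd1 on inner retinal neurons, through Drd2 on the dopamine cells themselves and through Drd4 on photoreceptors, and it opposes melatonin. Dbh turns dopamine into noradrenaline and is best known from sympathetic nerves. Opn4 is melanopsin, the photopigment of intrinsically photosensitive ganglion cells, which report ambient light to the clock and the pupil and contact dopaminergic amacrine cells.

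Levels are library-scaled counts (CPM) after scaling with the trimmed mean of M-values (TMM), and they compare libraries for a given gene, not genes with each other. Total counts per library lay between 25158407 and 182162368, with a median of 106887932. The 9 rod markers analysed summed to 30637 to 58722 CPM in control libraries, as the label of retina requires, and to 4809 to 21308 CPM in the 17 libraries of the groups exposed to light. Markers of other eye tissues were present too. Pigment epithelium markers summed to 3329 to 5426 CPM in control. Lens markers summed to 478 to 5427 CPM in control, 3517 to 19689 in vehicle and 234 to 8065 over the other groups. The part of these tissues in the results was not tested. Libraries light damage 4 and 7, and vehicle 4 and 7, were more alike than other pairs: their counts spread 4.13 and 2.59 times as much as counting noise, against a median of 32.5 for pairs of the same group. They were kept apart, since that spread exceeds sampling noise, and results that change when each pair is summed are named. Whether a pair came from 1 rat or from 1 divided sample is not known, and in that case light damage would hold 6 and vehicle 4 independent samples. High Y-linked transcripts marked 4 of 5 libraries of control, 4 of 7 of light damage, 1 of 5 of vehicle, 2 of 5 of vehicle plus light, 2 of 4 of nanoceria and 3 of 5 of nanoceria plus light, an uneven spread of the sexes. Because this is bulk tissue, fewer cells of a type and less RNA per cell cannot be told apart.

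The 250 bases upstream of the start of transcription are shown for the 3 enzymes of dopamine and melatonin synthesis whose promoters hold a motif searched for, and for Drd4, which fell with light, so that the promoters can be set beside the responses. The sequences are those of RefSeq on the GRCr8 build, written 5' to 3' on the strand of the gene, and the build differs from that of the counts. Upstream is counted from the start of transcription in RefSeq's promoter table, which for Aanat lies 2676 bases inside the gene (chr10:102323647-102330639) and for Th 58 bases inside it (chr1:207500959-207508276), so the stretch of Aanat lies wholly within the gene and that of Th reaches 58 bases into it. The starts of Asmt and Drd4 are those of the gene. Among the stretches searched but not printed, that of Drd1 lies wholly within its gene and that of Dbh reaches 15 bases into it. Capitals mark the cyclic AMP response element TGACGTCA, bound by factors such as Creb1 and Crem, and TAATCC, bound by the photoreceptor factor Crx, on either strand; CACGTG, bound by the clock proteins, was searched too. The regions are chr1:207508219-207508468 (minus strand) for Th, chr12:21423337-21423586 (minus strand) for Asmt, chr10:102326073-102326322 (plus strand) for Aanat and chr1:205825687-205825936 (plus strand) for Drd4.
Th: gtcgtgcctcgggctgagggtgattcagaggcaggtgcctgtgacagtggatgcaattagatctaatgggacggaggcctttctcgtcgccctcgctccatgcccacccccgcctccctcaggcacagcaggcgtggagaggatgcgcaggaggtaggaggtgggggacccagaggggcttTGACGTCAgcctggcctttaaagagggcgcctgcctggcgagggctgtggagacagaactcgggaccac
Asmt: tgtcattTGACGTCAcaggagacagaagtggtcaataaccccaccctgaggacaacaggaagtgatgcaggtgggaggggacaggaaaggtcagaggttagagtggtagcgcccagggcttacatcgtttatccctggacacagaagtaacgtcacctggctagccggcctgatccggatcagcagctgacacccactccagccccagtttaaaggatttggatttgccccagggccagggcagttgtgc
Aanat: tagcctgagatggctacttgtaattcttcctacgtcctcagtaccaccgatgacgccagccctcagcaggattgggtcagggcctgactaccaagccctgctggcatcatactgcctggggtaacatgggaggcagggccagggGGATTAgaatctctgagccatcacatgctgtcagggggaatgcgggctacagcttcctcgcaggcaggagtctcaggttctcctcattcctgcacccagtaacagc
Drd4: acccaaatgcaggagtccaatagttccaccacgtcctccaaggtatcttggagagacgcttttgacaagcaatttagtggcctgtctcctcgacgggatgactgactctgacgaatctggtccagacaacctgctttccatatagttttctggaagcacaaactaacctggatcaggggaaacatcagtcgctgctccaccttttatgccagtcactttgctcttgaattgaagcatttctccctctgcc
The cyclic AMP response element stood in 2 of the 9 promoters, from -69 to -62 in Th and from -243 to -236 in Asmt, counted from the same starts, and in 1.59% of 33469 rat promoters of the same length. TAATCC or its reverse complement stood in 3 of the 9, from -106 to -101 in Aanat, -58 to -53 in Opn4 and -205 to -200 in Mtnr1a, and in 6.34% of all. CACGTG stood in 0 of the 9 and in 5.59% of all, and the printed stretch of Drd4 held none of the motifs. A match is a run of letters, not a measured binding site.

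Damaging light lowered the dopamine receptor Drd4 and raised tyrosine hydroxylase, Th, when the responses of uninjected, vehicle-injected and nanoceria-injected retinas were averaged. The other 6 genes tested (Aanat, Asmt, Dbh, Drd1, Drd2 and Opn4) did not pass the test of edgeR in that average, where limma-voom called Dbh as well (0.30, adjusted p = 0.0372, against 0.25 ± 0.13 and 0.129 with edgeR). These 2 of 8 genes called compare with 37.1% of all genes called in the averaged response, so the share is not above the background. In uninjected retinas 2 of 8 were called, Drd4 lower and Dbh higher, against 22.5% of all genes. After nanoceria 1 of 8 was called, Drd4, against 13.9% of all genes. After vehicle 0 of 8 were called, against 16.8% of all genes, while 3 had an unadjusted p under 0.05 with the quasi-likelihood test of edgeR; the Wald test of DESeq2 called 1 and limma-voom called 3. The median log2 fold change of the 8 genes in the averaged response was 0.00, beside 0.02 for all genes tested.

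**Figure D1:**
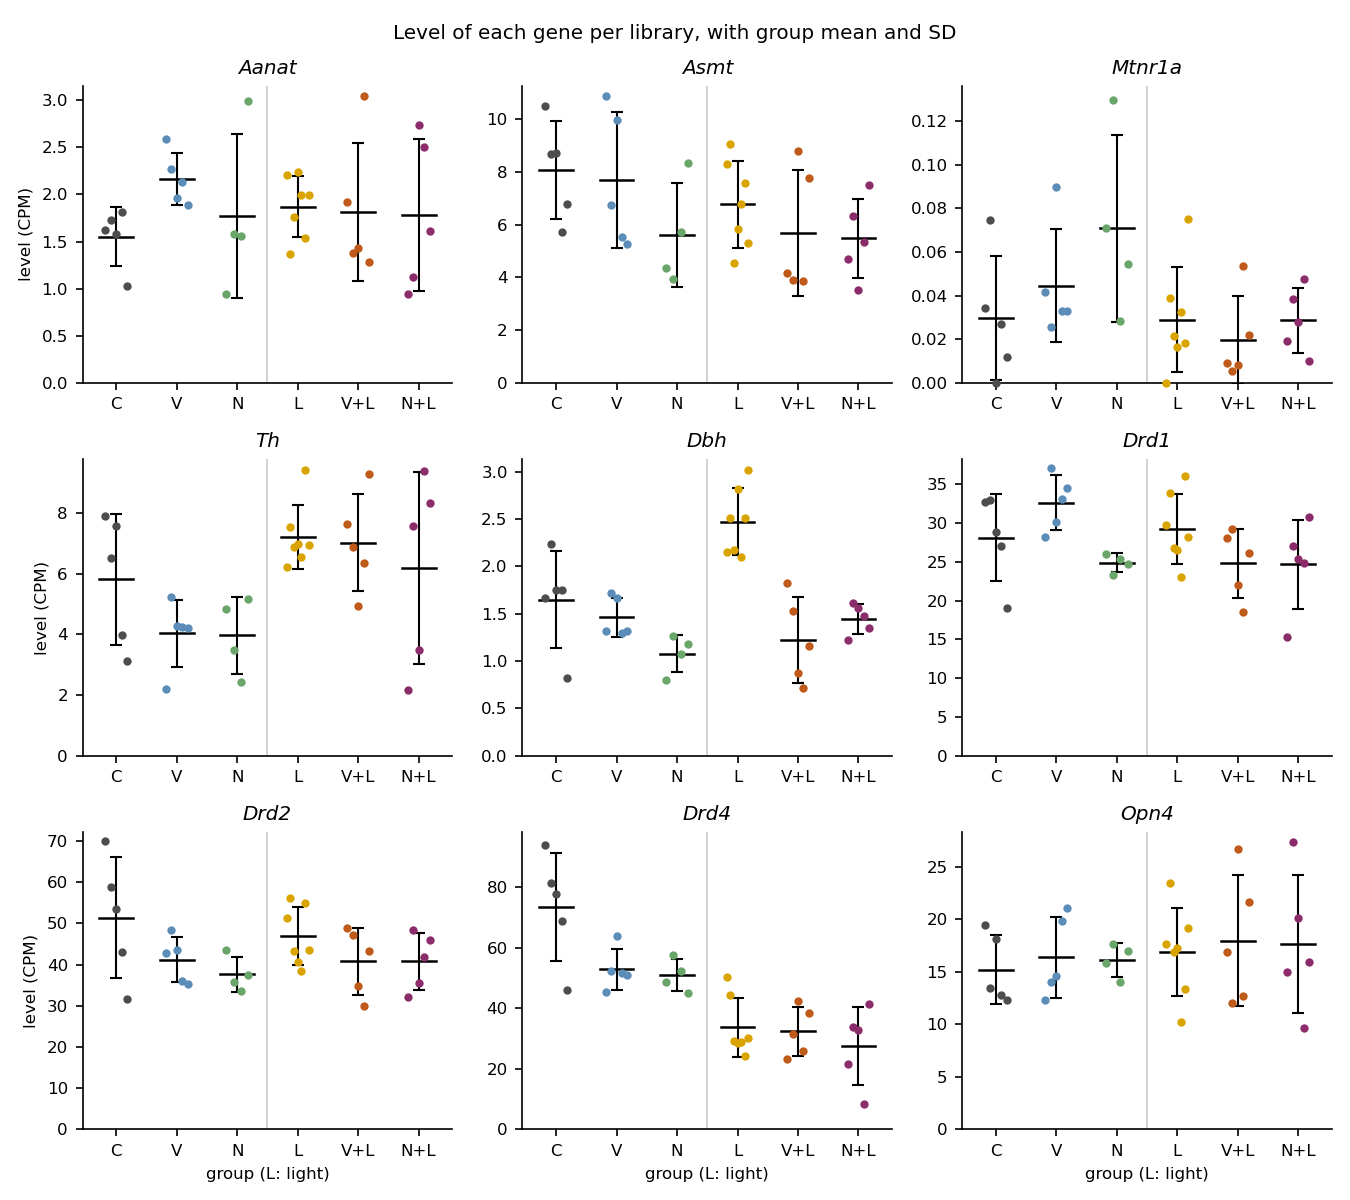
Level of each of the 9 genes in CPM (y axis, from 0) for each of 31 libraries (points) in control (C), vehicle (V), nanoceria (N), light damage (L), vehicle plus light (V+L) and nanoceria plus light (N+L), with the group mean (line) and SD (bar, drawn down to 0 at most). Drd4 fell from group means of 50.9 to 73.5 CPM without light to 27.6 to 33.6 CPM with it, and Dbh was highest in light damage at a mean of 2.47 CPM.

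Neither enzyme of melatonin synthesis passed the test for a change with light. Aanat, the enzyme whose night-time rise sets melatonin output, stood at 1.62, 1.73, 1.58, 1.81 and 1.02 CPM in control and between 1.37 and 2.24 CPM, with a median of 2.00, in light damage. These ranges overlapped, and 4 of 7 light damage libraries lay above every control. Vehicle libraries had 2.59, 2.27, 1.96, 2.14 and 1.89 CPM, and vehicle plus light libraries 1.92, 1.37, 1.43, 3.05 and 1.28. Nanoceria libraries had 0.947, 1.58, 1.55 and 3.00 CPM, and nanoceria plus light libraries 0.947, 1.12, 2.74, 2.5 and 1.61. The vehicle libraries lay close together, the other 3 of these groups spread widely, and neither pair of groups separated. The averaged log2 fold change with light was 0.00 ± 0.16 (SE), with a 95% interval of -0.33 to 0.34 and an edgeR adjusted p of 0.989. The 3 responses were 0.26 ± 0.27 without injection, -0.26 ± 0.28 after vehicle and 0.01 ± 0.30 after nanoceria. All 5 vehicle libraries lay above all 5 controls in Aanat, as in 1% of all genes tested, but the log2 difference of 0.48 ± 0.29 had an adjusted p of 0.692.

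Asmt, which completes melatonin synthesis and whose promoter carries the cyclic AMP response element shown above, was at 10.5, 8.68, 8.73, 5.73 and 6.77 CPM in control and between 4.53 and 9.07 CPM, with a median of 6.80, in light damage. Vehicle libraries had 10.9, 6.75, 9.97, 5.55 and 5.28 CPM, against 4.15, 3.89, 8.79, 3.84 and 7.77 in vehicle plus light. Nanoceria libraries had 4.37, 3.95, 5.73 and 8.34 CPM, against 4.71, 6.31, 3.52, 5.34 and 7.49 in nanoceria plus light. Group means ran from 8.08 CPM in control down to 5.47 in nanoceria plus light, and the ranges of neighbours in that order overlapped throughout. The averaged log2 fold change with light was -0.24 ± 0.16, with an interval of -0.56 to 0.08 and an adjusted p of 0.243.

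Mtnr1a, the melatonin receptor, was near the limit of detection: it had 118 counts over the 31 libraries, 0 to 11 per library with a median of 3, and 2 libraries had none. For those 2 libraries, control 4 and light damage 1, a count of 0 allows up to 0.0404 and 0.119 CPM, in counting error only. Controls had 3, 9, 0, 3 and 1 counts, vehicle libraries 4, 3, 6, 3 and 4, and nanoceria libraries 6, 11, 3 and 6. With light there were 0 to 10 counts without injection, 1, 1, 1, 7 and 2 after vehicle and 2, 4, 3, 6 and 1 after nanoceria. In CPM, 4 of 5 vehicle plus light libraries lay below every vehicle library and 3 of 5 nanoceria plus light libraries below every nanoceria library, with overlap in both pairs. In an edgeR fit without the filter on low counts, its averaged change with light was -0.77 on the log2 scale and was not called (unadjusted p = 0.0459, adjusted p = 0.127), and it was called in none of the 15 comparisons.

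Of 10 other melatonin genes tested (the serotonin synthesis enzymes Tph1, Tph2 and Ddc, the orphan receptor Gpr50, the cyclase Adcy1, the adrenergic receptors Adra1b and Adrb1, and Crem, Crx and Otx2), 2 rose and 3 fell in the averaged response to light, against 37.1% of all genes called, with a median log2 fold change of 0.09 beside 0.02 for all genes. The 3 with the smallest adjusted p were transcription factors. Crem, whose short product ICER represses Aanat in the pineal gland, rose from means of 15.1 to 16.1 CPM in the 3 groups without light to 30.5 to 32.6 CPM in the 3 groups with it. Its averaged log2 fold change was 1.02 ± 0.08 (edgeR adjusted p = 1.32e-10), and its response was called without injection (0.95 ± 0.14), after vehicle (1.00 ± 0.15) and after nanoceria (1.11 ± 0.16). Crx and Otx2, homeobox factors of photoreceptors, fell by 0.73 and 0.60 on the log2 scale in the average (adjusted p = 1.01e-05 and 7.52e-06). After nanoceria the change of Crx, -0.68 ± 0.21, was called with an adjusted p of 0.0319, which rose to as much as 0.0959 without nanoceria 2, 3 or 5 or nanoceria plus light 1, 3 or 4, and Otx2 was not called there (-0.47 ± 0.17, adjusted p = 0.0683). Markers of photoreceptors changed as well: in the average 8 of 9 rod markers fell, with a median of -1.65. Of 8 cone markers 7 fell and 1 rose, with a median of -0.87. Among 6 markers of Mueller glia 3 fell and 1 rose, with a median of -0.46. The part of these cells in the result was not tested.

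Th, which sets the rate of dopamine synthesis and has the cyclic AMP response element near its start, was at 7.91, 6.53, 7.56, 3.97 and 3.13 CPM in control and between 6.21 and 9.41 CPM, with a median of 6.96, in light damage. The control libraries spread widely, and the uninjected groups overlapped. Vehicle libraries had 2.21, 5.23, 4.27, 4.24 and 4.21 CPM, against 7.65, 6.89, 4.94, 6.36 and 9.28 in vehicle plus light. Here 4 of 5 light-exposed libraries lay above every vehicle library. Nanoceria libraries had 4.83, 3.48, 2.43 and 5.17 CPM, against 2.17, 7.57, 3.50, 9.40 and 8.32 in nanoceria plus light. In that pair 3 of 5 lay above and 1 of 5 below every nanoceria library.

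Averaged over the 3 injection states, Th rose with light by 0.58 ± 0.18 on the log2 scale, a 1.5-fold difference with an edgeR adjusted p of 0.0108. The call held without each of the 31 libraries in turn and under each of the 9 other settings. None of the 3 separate responses was called: 0.31 ± 0.29 without injection (adjusted p = 0.502), 0.80 ± 0.31 after vehicle (0.0779) and 0.64 ± 0.33 after nanoceria (0.224). The response after vehicle was called without nanoceria plus light 1 (adjusted p = 0.0383), with limma-voom (0.0111) and in a fit of those 2 groups alone. The response after vehicle differed from that without injection by 0.49 ± 0.42 (adjusted p = 0.98), and that after nanoceria by 0.33 ± 0.43 (0.899), so a difference between them was not detected.

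Dbh, which makes noradrenaline from dopamine, showed a different pattern: it was highest in retinas exposed to light without an injection. Control libraries had 1.67, 2.24, 1.75, 1.76 and 0.822 CPM, and light damage libraries lay between 2.10 and 3.02 CPM, with a median of 2.51. Of the 7 light damage libraries, 4 lay above every control. Vehicle plus light libraries had 1.82, 1.53, 0.875, 0.719 and 1.16 CPM, and nanoceria plus light libraries 1.22, 1.61, 1.56, 1.48 and 1.35. None of these 10 injected libraries reached the lowest light damage library. Without light, vehicle libraries had 1.32, 1.72, 1.66, 1.297 and 1.32 CPM and nanoceria libraries 0.805, 1.26, 1.07 and 1.18.

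Under light, Dbh was lower with an injection than without by 0.90 ± 0.17 on the log2 scale (mean of the vehicle and nanoceria groups, a 1.86-fold difference, edgeR adjusted p = 0.00797). It was the 1 of 8 genes called there, against 0.486% of all genes, and the call held without each of the 31 libraries and under each of 9 other settings. Against light damage, vehicle plus light differed by -1.02 ± 0.21 (adjusted p = 0.0334), where 1 of 8 genes was called against 0.122% of all genes and 0.486% of all genes separated without overlap in that direction. That call ended without light damage 1, 4, 6 or 7 or vehicle plus light 3, 4 or 6 (adjusted p up to 0.114), when the near-identical pairs were summed (0.0922), and under 4 other settings (0.0537 to 0.175). Nanoceria plus light differed from light damage by -0.78 ± 0.21 (adjusted p = 0.189), with no overlap, as in 0.282% of all genes in that direction. There 0 of 8 genes were called, against 0.0608% of all genes, 1 had an unadjusted p under 0.05 and the Wald test of DESeq2 called 1.

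Dbh rose with light in uninjected retinas by 0.59 ± 0.20 (1.5-fold, adjusted p = 0.0379), and this call ended without control 1, 4, 5 or 6 or light damage 2, 4, 6 or 7 (adjusted p up to 0.109) and when the near-identical pairs were summed (0.0784) or only those groups were fitted (0.0618). The response was -0.26 ± 0.22 after vehicle (adjusted p = 0.487) and 0.42 ± 0.23 after nanoceria (0.268). Its difference between vehicle-injected and uninjected retinas was -0.84 ± 0.30, with an adjusted p of 0.583 and an unadjusted p of 0.00852, so the difference did not pass over all genes. Dbh had 44 to 400 counts per library, which limits its precision. The 5 markers of sympathetic neurons summed to 11.6 to 22.1 CPM in light damage, 8.72 to 21.4 in vehicle plus light and 7.28 to 24.5 in nanoceria plus light. Only 2 of the 5 passed the filter, and 0 of these were called. Slc6a2, 1 of the 2, had means of 2.65, 2.75 and 2.60 CPM in those groups, so most of each sum came from the other markers. The part of sympathetic neurons in the result was not tested.

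**Figure D2:**
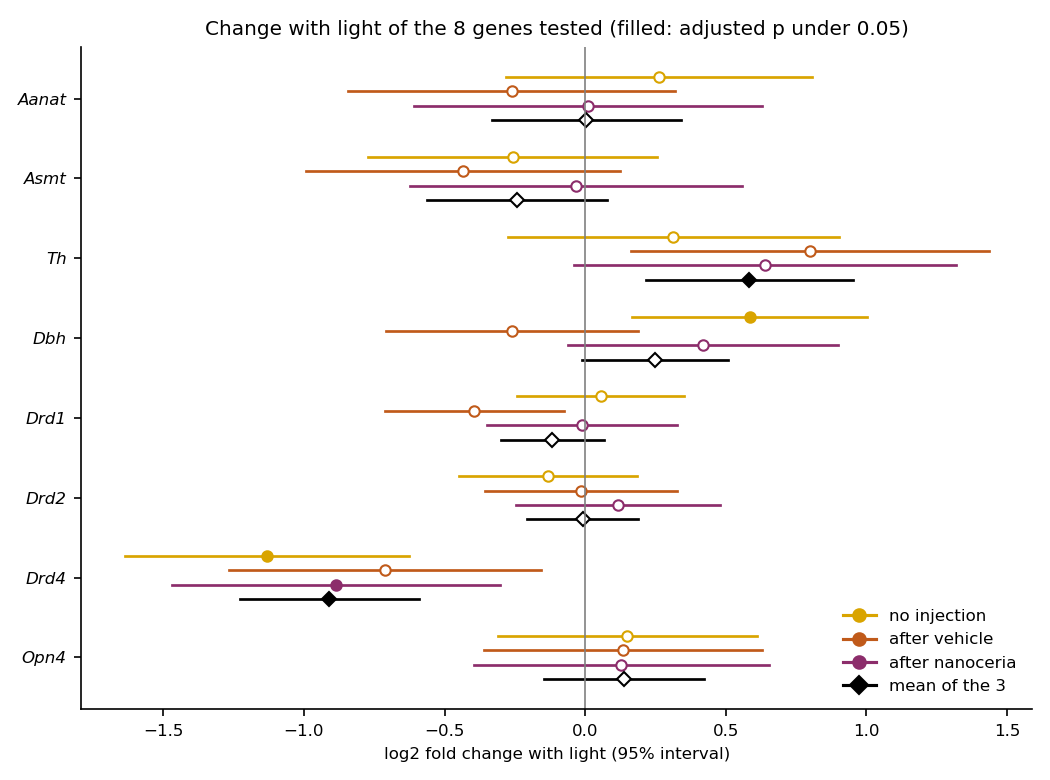
Log2 fold change with light (x axis) and its 95% interval for the 8 genes tested (y axis), without injection (light damage against control), after vehicle, after nanoceria and averaged over these, with filled symbols for an adjusted p under 0.05. Drd4 lies below 0 in all 3 responses, from -1.13 to -0.71, and Dbh ranges from -0.26 after vehicle to 0.59 without injection.

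Of 13 other genes of dopamine synthesis, storage and removal, 3 rose and 1 fell in the averaged response, against 37.1% of all genes called, with a median of -0.03 beside 0.02 for all genes. Slc18a2, the vesicular transporter that loads dopamine into vesicles, rose by 0.48 ± 0.06 (edgeR adjusted p = 9.98e-08), from means of 6.19 to 6.64 CPM without light to 8.72 to 9.32 CPM with it. It was called in each of the 3 responses (0.40 ± 0.09, 0.59 ± 0.10 and 0.45 ± 0.11 without injection, after vehicle and after nanoceria). Slc18a1, the vesicular transporter of neuroendocrine cells, rose by 1.10 ± 0.17 (adjusted p = 7e-06). It was called after vehicle (1.33 ± 0.29) and after nanoceria (1.43 ± 0.32) and not without injection (0.54 ± 0.27, adjusted p = 0.17). The differences of the injected responses from that without injection, 0.79 ± 0.39 and 0.89 ± 0.41, did not pass (adjusted p = 0.866 and 0.456). Pcbd1, which recycles the tetrahydrobiopterin cofactor of Th, fell by 0.59 ± 0.09 (adjusted p = 5.73e-06), with -0.34 ± 0.14 without injection (adjusted p = 0.0939), -0.75 ± 0.16 after vehicle and -0.67 ± 0.16 after nanoceria. Of the 10 amacrine cell markers, the class that holds the dopamine cells, 0 were called in the averaged response, with a median of 0.03, and they summed to 1279 to 2044 CPM in control and 1508 to 1938 CPM in light damage.

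Among the dopamine receptors, Drd4 fell with light and Drd1 and Drd2 did not pass the test. Drd4, the receptor of photoreceptors, was at 93.8, 81.4, 77.9, 68.8 and 45.8 CPM in control and between 24.2 and 50.4 CPM, with a median of 29.2, in light damage. Of the 7 light damage libraries, 6 lay below the lowest control. Vehicle libraries had 45.3, 52.3, 64.0, 51.8 and 50.8 CPM, against 23.2, 31.6, 42.4, 26.0 and 38.2 in vehicle plus light. Nanoceria libraries had 48.7, 57.5, 52.2 and 45.1 CPM, against 21.4, 33.7, 32.7, 8.43 and 41.5 in nanoceria plus light. In both injected pairs every light-exposed library lay below every library without light, as in 6.01% of all genes after vehicle and 5.54% after nanoceria in that direction.

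Without injection Drd4 changed by -1.13 ± 0.25 on the log2 scale, 2.19-fold lower (edgeR adjusted p = 0.00113). After nanoceria it changed by -0.88 ± 0.28 (adjusted p = 0.0358), a call that ended without any of the 4 nanoceria libraries or without nanoceria plus light 1 or 4 (adjusted p up to 0.0994). After vehicle it changed by -0.71 ± 0.27 and was not called (adjusted p = 0.0715), while DESeq2's Wald test, limma-voom and a fit of those 2 groups alone called it (adjusted p = 0.0408, 0.00647 and 0.0123). It was also called without vehicle plus light 3 (adjusted p = 0.0477) or nanoceria plus light 4 (0.0143). The averaged change was -0.91 ± 0.15, 1.88-fold lower (adjusted p = 2.62e-05), and held without each of the 31 libraries and under each of 9 other settings. The 3 responses were not shown to differ: the differences were 0.42 ± 0.37 (vehicle against none), 0.25 ± 0.38 (nanoceria against none) and -0.17 ± 0.39 (nanoceria against vehicle), with adjusted p from 0.921 to 1. Under light, Drd4 in nanoceria plus light differed from vehicle plus light by -0.23 ± 0.27 (interval -0.78 to 0.32, adjusted p = 1).

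Drd4 and the rod markers were both lower in the groups exposed to light. Among the groups without light, mean rod sums were 42822 CPM in control, 46789 in vehicle and 45787 in nanoceria. The Drd4 means of these groups were 73.5, 52.8 and 50.9 CPM. Nanoceria 5, with the lowest Drd4 without light, 45.1 CPM, had a rod sum of 57720 CPM, the highest of its group. In control, by contrast, Drd4 and the rod sum were both highest in control 1 (93.8 and 58722 CPM). Both were lowest in control 6 (45.8 and 30637 CPM). In vehicle both were highest in vehicle 3 (64.0 and 51771 CPM) and lowest in vehicle 1 (45.3 and 41387 CPM). The 9 rod markers summed to 38030 to 57720 CPM in nanoceria libraries, 41387 to 51771 in vehicle, 10143 to 19354 in light damage and 8854 to 20077 in vehicle plus light. The 8 cone markers summed to 115 to 184 CPM in control and 97.5 to 144 in light damage, and to 146 to 177 in vehicle and 53.4 to 117 in vehicle plus light. Nanoceria plus light 4, with the lowest Drd4, also had the lowest rod sum of all libraries, 4809 CPM. The genes whose log2 CPM followed Drd4 most closely over the 31 libraries, among 12852 compared, were Gpld1 (Pearson r = 0.941), the rod opsin kinase gene Grk1 (0.936) and Osbp2 (0.928), and within groups these were 0.921, 0.882 and 0.871. These are descriptions, since the libraries share depth and composition, and the part of rods and cones in the change of Drd4 was not tested.

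**Figure D3:**
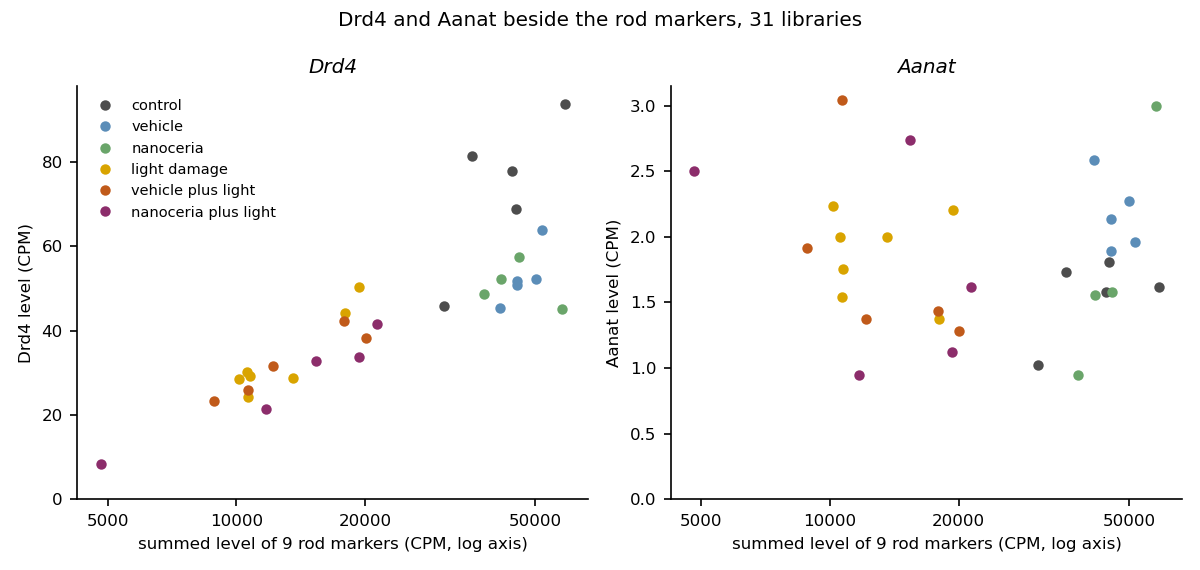
Level of Drd4 (left) and Aanat (right) in CPM against the summed level of 9 rod markers in CPM (log axis) in each of 31 libraries, coloured by group. Light-exposed libraries lie at 4809 to 21308 CPM of rod markers with Drd4 from 8.43 to 50.4 CPM, whereas Aanat spans 0.947 to 3.05 CPM with light and 0.947 to 3.00 CPM without.

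Drd1, the receptor of horizontal, bipolar and amacrine cells, was at 32.7, 32.9, 28.8, 27.1 and 19.1 CPM in control and between 23.1 and 36.1 CPM, with a median of 28.3, in light damage. Vehicle libraries had 28.2, 37.1, 30.2, 33.1 and 34.5 CPM, against 28.01, 29.3, 22.0, 18.6 and 26.2 in vehicle plus light. In that pair 4 of 5 light-exposed libraries lay below every vehicle library, and the change of -0.39 ± 0.16 had an adjusted p of 0.085, or 0.0418 without nanoceria plus light 1 and 0.0162 with limma-voom. Nanoceria libraries had 26.1, 23.3, 25.4 and 24.8 CPM, against 15.3, 27.1, 25.4, 24.8 and 30.8 in nanoceria plus light. The averaged change was -0.12 ± 0.09 (interval -0.30 to 0.07, adjusted p = 0.333). Without light, nanoceria differed from vehicle by -0.39 ± 0.17 (adjusted p = 0.746), a difference that limma-voom called (adjusted p = 0.0144).

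Drd2, the receptor by which dopamine cells sense their own release, was at 70.1, 58.9, 53.5, 42.99 and 31.7 CPM in control and between 38.5 and 56.2 CPM, with a median of 43.6, in light damage. The controls spread more than 2-fold, and the light damage libraries lay inside their range. Vehicle libraries had 42.8, 48.5, 43.6, 36.0 and 35.3 CPM, against 48.8, 47.2, 34.8, 30.03 and 43.2 in vehicle plus light. Nanoceria libraries had 43.6, 35.7, 33.6 and 37.4 CPM, against 32.1, 48.4, 35.6, 41.9 and 46.1 in nanoceria plus light. The averaged change with light was -0.01 ± 0.10, with an interval of -0.21 to 0.19 (adjusted p = 0.952).

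Of 12 other genes of dopamine signalling, 3 rose and 2 fell in the averaged response, against 37.1% of all genes called, with a median of -0.04 beside 0.02 for all genes. Rgs9, which ends G protein signals in photoreceptors and, in the striatum, of dopamine receptors, fell by 0.65 ± 0.12 (edgeR adjusted p = 6.76e-05), and by 0.65, 0.61 and 0.70 without injection, after vehicle and after nanoceria. The calls after the injections had adjusted p of 0.0439 and 0.031 and ended without several libraries (up to 0.13 without control 2, vehicle 2, 3, 4 or 7 or vehicle plus light 1, 2 or 4, and up to 0.0922 without nanoceria 2 or 5 or nanoceria plus light 1, 3 or 4). Adcy6, an adenylyl cyclase, fell by 0.26 ± 0.05 (adjusted p = 0.000202), and Gnai1, an inhibitory G protein subunit, rose by 0.29 ± 0.08 (0.0046). Without injection each was called (-0.30 ± 0.08 and 0.43 ± 0.13), with values of -0.21 and 0.23 after vehicle and -0.25 and 0.22 after nanoceria that were not called, and the call of Gnai1 ended without control 5 or 6 (adjusted p up to 0.0651).

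Opn4, melanopsin, did not pass the test in any comparison. Control libraries had 19.4, 13.4, 18.1, 12.8 and 12.3 CPM, and light damage libraries lay between 10.3 and 23.5 CPM, with a median of 17.3. Vehicle libraries had 12.3, 14.02, 14.7, 19.8 and 21.1 CPM, against 16.8, 12.0, 26.8, 12.7 and 21.6 in vehicle plus light. Nanoceria libraries had 15.8, 17.7, 14.02 and 17.0 CPM, against 15.03, 27.4, 20.1, 9.67 and 16.0 in nanoceria plus light. Group means lay between 15.2 CPM in control and 17.99 in vehicle plus light, with overlapping ranges for all neighbours in that order. The averaged change with light was 0.14 ± 0.14 (interval -0.15 to 0.42, edgeR adjusted p = 0.479). Of the 10 ganglion cell markers 0 were called in that average, with a median of -0.03.

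Of 18 other genes listed with melanopsin, 3 rose and 1 fell in the averaged response, against 37.1% of all genes called. Their median was 0.05 beside 0.02 for all genes. The list holds genes of the melanopsin cascade and its cells, and also the other opsins Opn3, Rgr and Rrh. Gnaq, the G protein subunit that melanopsin activates, rose by 0.31 ± 0.05 (edgeR adjusted p = 3.91e-06) from means of 23.7 to 24.5 CPM without light to 29.3 to 30.7 CPM with it. It was called without injection (0.34 ± 0.07), after vehicle (0.26 ± 0.08) and after nanoceria (0.33 ± 0.08), and the call after vehicle ended without vehicle 1 or vehicle plus light 1 or 4 (adjusted p up to 0.0774). Adcyap1, the neuropeptide PACAP that melanopsin cells release, rose by 0.75 ± 0.18 (adjusted p = 0.00151). Its separate responses were 0.87 ± 0.29 without injection (called, adjusted p = 0.0313, and up to 0.0806 without control 1, 5 or 6 or light damage 3, 6 or 7), 0.72 ± 0.31 after vehicle and 0.65 ± 0.33 after nanoceria. Rrh, an opsin of the pigment epithelium, was the 1 that fell, by 0.46 ± 0.11 (adjusted p = 0.00128).

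**Figure D4:**
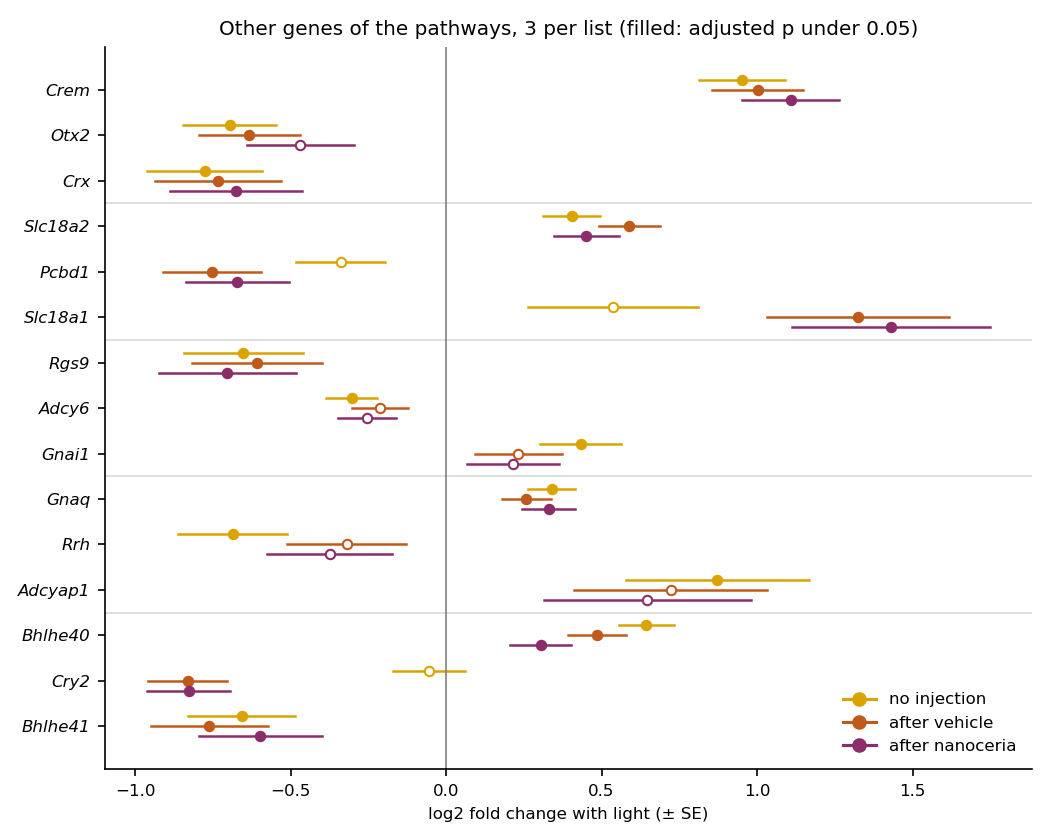
Log2 fold change with light ± SE (x axis) without injection, after vehicle and after nanoceria for the 3 genes of each of 5 lists with the smallest adjusted p in the averaged response, with lines between the lists and filled symbols for an adjusted p under 0.05. Crem lies at 0.95 to 1.11 in all 3 responses, and Cry2 at -0.05 without injection and at -0.83 after either injection.

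Clock genes, which time melatonin and dopamine in the retina, were the last list: of 17, 4 rose and 8 fell in the averaged response, against 37.1% of all genes called, with a median of -0.04 beside 0.02 for all genes. Bhlhe40, a light-induced repressor of the clock, rose by 0.48 ± 0.05 (edgeR adjusted p = 4.21e-08), and its relative Bhlhe41 fell by 0.67 ± 0.11 (1.13e-05). Both were called in each response. After nanoceria the adjusted p was 0.0391 for Bhlhe40 and 0.0421 for Bhlhe41, and rose to as much as 0.143 without control 6, nanoceria 2, 3 or 5, light damage 1 or nanoceria plus light 1, 3 or 4, and 0.188 without nanoceria 1 or 2 or nanoceria plus light 1, 3, 4 or 5. Cry2, a repressor of the clock, stood at means of 144 CPM in control and 139 in light damage (-0.05 ± 0.12, adjusted p = 0.804), at 189 in vehicle and 106 in vehicle plus light (-0.83 ± 0.13, 2.64e-05), and at 190 in nanoceria and 107 in nanoceria plus light (-0.83 ± 0.13, 6.69e-05). The response of Cry2 after nanoceria differed from that without injection by -0.77 ± 0.18 (adjusted p = 0.0476), the 1 clock gene called in that test. That call held in 8 of the 31 fits that left out a library and ended without any control or any nanoceria library, among others (adjusted p up to 0.0979), and the difference after vehicle, -0.78 ± 0.17, was not called (0.104). Against control without light, the median of the 17 clock genes was 0.15 in vehicle and 0.31 in nanoceria, beside -0.03 and -0.04 for all genes. They summed to 1363 to 1598 CPM in control, 1596 to 1769 in vehicle and 1602 to 1864 in nanoceria. The hour of collection is not given and cannot be told apart from the injection here.

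Without light, no difference with injection passed the test of edgeR in the 8 genes. The counts were 0 of 8 in vehicle against control, where 0.0221% of all genes were called, 0 of 8 in nanoceria against control (2.46%), 0 of 8 in nanoceria against vehicle (0%) and 0 of 8 for both injections averaged against control (1.07%). At an unadjusted p under 0.05 there were 0, 2, 1 and 2, and limma-voom called 2, 2, 1 and 3, whereas the Wald test of DESeq2 called 0 in each. The limma-voom calls were Drd2 and Drd4 in vehicle against control (adjusted p = 0.0164 and 0.047), Drd2 and Dbh in nanoceria against control (0.0373 and 0.0196), Drd1 in nanoceria against vehicle, and Drd2, Drd4 and Dbh for both injections (0.0144, 0.0417 and 0.026), all negative. With edgeR the lowest adjusted p in these comparisons was that of Dbh in nanoceria against control (-0.61 ± 0.23, 0.194), followed by Drd2 for both injections averaged (-0.39 ± 0.15, 0.2). Drd2 in nanoceria against control changed by -0.45 ± 0.18 (0.208) and Drd4 for both injections by -0.50 ± 0.23 (0.322). Group means of Drd4 were 73.5 ± 17.9 CPM (SD) in control, 52.8 ± 6.83 in vehicle and 50.9 ± 5.27 in nanoceria, and control 6 lay inside the range of the injected libraries.

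Of the 70 genes tested in the 5 pathway lists, 4 (5.71%) were called in nanoceria against control, beside 2.46% of all genes: Trpc6, a melanopsin cascade channel (0.61 ± 0.17, edgeR adjusted p = 0.0437), and the clock genes Ciart (0.67 ± 0.17, 0.031), Nr1d2 (0.42 ± 0.11, 0.0317) and Npas2 (-0.71 ± 0.20, 0.0494). When each library was left out in turn, Ciart was called in 25 of 31 fits (adjusted p up to 0.134), Nr1d2 in 25 (0.13), Trpc6 in 18 (0.124) and Npas2 in 7 (0.215), and all 4 calls ended without control 4, control 5, control 6, nanoceria 1 or nanoceria 2. In nanoceria against control 4 of 5 microglia markers also rose, beside the same 2.46% of all genes, from 84.5 to 109 CPM summed in control to 136 to 183 CPM in nanoceria; their part in these results was not tested.

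Under light, nanoceria and vehicle were not shown to differ in any of the 8 genes: edgeR called 0 of 8, against 0% of all genes, with 0 at an unadjusted p under 0.05 and 0 by the Wald test of DESeq2 and by limma-voom. The tests of whether an injection altered the light response called 0 of 8 for vehicle against no injection (0.0442% of all genes called), 0 of 8 for nanoceria against no injection (0.409%) and 0 of 8 for nanoceria against vehicle (0%). At an unadjusted p under 0.05 there were 2, 0 and 1, and DESeq2 and limma-voom called 0 in each. The 2 were Dbh, given above, and Drd1 (-0.45 ± 0.21, adjusted p = 0.826), and the 1 was Dbh (0.68 ± 0.32, adjusted p = 1).

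The genes differed in what followed them across the 31 libraries, measured as the Pearson correlation of log2 CPM and given as a description, since libraries share depth and composition. For Drd1 the closest were Dscam (r = 0.939), a neuronal adhesion molecule, Chrna4 (0.931), a nicotinic receptor subunit, and Slitrk3 (0.916). For Drd2 they were Tmem130 (0.934), Pdxp (0.930) and Nsmf (0.924). Those reported for Th were Tac1 (0.854), the precursor of substance P, and Lrrtm4 (0.839). For Dbh they were Fam163b (0.834), Fv1 (0.792) and Zfp521 (0.760), and for Opn4 Zfp866 (0.747), Cerkl (0.713) and Zbtb8a (0.709). For the melatonin enzymes they were Nudt16l1 (0.758), Stmn1 (0.750) and Crabp1 (0.745) beside Asmt, and Psmg4 (0.584), Cklf (0.549) and S100g (0.544) beside Aanat, the lowest of the 8.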

How the data were processed

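Libraries of polyadenylated retinal RNA were read as pairs of 150 bp, per the labels' protocols. What the authors deposited is 1 table of unnormalized whole-number counts by gene. The submitters' processing notes name the build rn6 and the tools R 4.0, DESeq2 1.30.1, Subread 2.0.1 (featureCounts), STAR 2.7.9a and Trimmomatic 0.39. How strand and reads with several mapping places were handled, and which annotation was counted, is not given in the sources used here. Counts were analysed for 31 of 42 labelled samples, each with a column that matched its labels, and the other 11 were not analysed here. Replicates are labelled as biological, and whether they are animals or eyes is not given, so p-values measure the spread between these libraries.

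A single edgeR 4.0.16 model (quasi-likelihood, R 4.3.3) held all 31 libraries (TMM scaling, robust fit, filterByExpr at minima of 10 counts and 15 in total, 1 coefficient per group, no covariate). Benjamini-Hochberg adjustment ran over all 18094 genes tested, and called means an adjusted p below 0.05. All p-values are 2-sided, and intervals cover 95%. Mean responses over groups are averages of the group coefficients. Log2 CPM for correlations had a prior count of 2. The fit was tested on simulated data with changes placed in light damage alone, and the outcome is not given here.

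The 9 genes, the pathway lists and the marker lists were chosen with earlier results of these data known. Other genes are named by a rule: the 3 of each pathway list with the smallest adjusted p in the averaged light response, list genes called in a comparison without light, and the 3 genes most correlated with each gene over 31 libraries, of which 1 is not reported here. The alternatives tried were DESeq2 1.42.0 size factors, library size alone, no filter, DESeq2's Wald test, sample-weighted limma-voom (limma 3.58.1), the replicate number as a block, a term for Y-linked transcripts above 20 CPM, near-identical pairs summed, only the groups compared, and each library left out. Promoters are from RefSeq.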

Additional observations from a re-analysis of the deposited data

Results flagged for a closer look

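In 2 of 54 sets of a gene in a group, a library stood apart from the rest of its group by the gap to its nearest neighbour; chance alone sets apart about 1 in 20 such sets. Th in light damage 6 was 9.41 CPM, where the next highest of the 7 light damage libraries was 7.54 CPM. Mtnr1a in vehicle 3 was 0.0898 CPM, from 6 counts, where the next highest was 0.0415 CPM. The call of Th in the averaged light response held without light damage 6.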

How the results depend on the processing

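The calls of Drd4 and Th in the averaged light response and of Dbh for injection under light held in all 31 fits without a library and under all 9 other settings. In the average limma-voom called Dbh too, so 3 genes in place of 2. Counts of the 8 genes called changed in other comparisons. Without injection the 2 light calls became 1 with near-identical pairs summed and 1 with only the groups compared (1 to 2 without a library). After vehicle the 0 became 1 with DESeq2's Wald test, 3 with limma-voom and 2 with only the groups compared (0 to 2 without a library). After nanoceria the 1 became 0 with only the groups compared (0 to 1 without a library). For vehicle plus light against light damage the 1 became 0 with library size alone, with the sex term, with pairs summed and with only the groups compared (0 to 1 without a library). For nanoceria plus light against light damage the 0 became 1 with DESeq2's Wald test. With limma-voom the 0 became 2 in vehicle against control, 2 in nanoceria against control, 1 in nanoceria against vehicle and 3 for both injections without light. The cause was not tested.

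With the replicate number as a block, the counts became 0 after nanoceria (Drd4, adjusted p = 0.0509) and 0 for vehicle plus light against light damage (Dbh, 0.0761), and no other count changed. Of 36 same-numbered pairs across groups 13 had correlated deviations over 0.1, with r from -0.21 to 0.38 and a median of 0.086. Pairs with different numbers were not compared, so these values cannot show whether the numbers pair the libraries.

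Over all refits of 125 values, directions changed 72 times, 22 under other settings and 50 without a library. In 1028 and 3673 of these refits, respectively, direction and call stayed as reported. A direction changed never for a called value and never with an adjusted p under 0.05. Aanat after nanoceria became -0.037 with DESeq2's factors, -0.037 with its Wald test, -0.040 with the block, -0.0048 with the sex term and -0.0089 with only the groups compared (-0.20 to 0.39 without a library). In the average it became -0.018 with DESeq2's factors, -0.019 with its Wald test, -0.012 with the block and -0.014 with pairs summed (-0.086 to 0.13). Asmt after nanoceria became 0.030 with library size alone, 0.048 with the block and 0.013 with the sex term (-0.17 to 0.23). Drd1 became -0.069 without injection with limma-voom (-0.043 to 0.12), and after nanoceria 0.043 with library size alone and 0.00086 with the block (-0.10 to 0.12). Drd2 after vehicle became 0.090 with library size alone and 0.18 with limma-voom (-0.087 to 0.078), in the average 0.067 with library size alone and 0.013 with the block (-0.059 to 0.036), and without injection it ranged from -0.25 to 0.0049. Opn4 after vehicle became -0.17 with limma-voom (-0.053 to 0.25), and after nanoceria it ranged from -0.087 to 0.28. Cry2 without injection became 0.021 with library size alone (-0.14 to 0.015). For Th the difference of the light responses after nanoceria and without injection became -0.051 with limma-voom. Without a library, nanoceria plus light against vehicle plus light ranged from -0.42 to 0.0031 for Drd4 and from -0.38 to 0.036 for Th, and the difference of their light responses from -0.37 to 0.058 and from -0.36 to 0.057.

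Depth limits Mtnr1a, which did not pass the filter on low counts, and the precision of Dbh and Aanat. Controls, light-exposed and injected groups hold 4 to 7 libraries, and the hour of collection and sex are not given, so differences tied to them were not separated beyond the term for Y-linked transcripts.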
